A study of Homo sapiens with 4 samples.

Results

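MYC, FOS, FOSL1, JUN, JUNB, JUND, EGR1, IER2, IER3 and ATF3 were examined as a set of 10 short-lived mRNAs, listed by gene name, with earlier results of these data known. Every array probe other than the controls whose accession maps to 1 of these genes was taken, which gave 14 probes and 23 spots, and all 10 genes passed the detection filter among 13039 genes kept of 24136 with a probe. The samples came from KYSE180, a cell line of human esophageal squamous cell carcinoma, without any treatment. In the group called TIA1 RIP, RNA was recovered from cytoplasmic lysates with an antibody against TIA1 (ribonucleoprotein immunoprecipitation), and in the group called total RNA the labels describe the input of the same line. The sources do not settle whether this input was whole-cell RNA or RNA of the cytoplasmic lysate, so that a ratio of TIA1 RIP over total RNA may hold a difference between cytoplasm and whole cell as well as recovery with TIA1. Each group had 2 single-colour arrays, numbered 1 and 2, and each TIA1 RIP array was compared with each total RNA array, which gave 4 pairs. Nothing in the sources states that the replicates were separate cultures, so that the p-values measure the spread between these arrays, which may be technical. All samples were of 1 line, and RNA recovered with a control immunoglobulin was not analysed here, so recovery with TIA1 and recovery without it cannot be told apart.

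TIA1 is an RNA-binding protein that attaches to U-rich and AU-rich stretches, mostly in 3′ untranslated regions (3′UTRs), and is known for silencing the translation of its targets and for gathering in stress granules. Immediate early genes are switched on within minutes of a growth or stress signal, and their mRNAs are destroyed fast, often through AU-rich elements built from the pentamer AUUUA. Their products are mostly transcription factors. FOS and JUN family proteins pair to form AP-1, EGR1 is a zinc finger activator, ATF3 is a stress-induced member of the ATF/CREB family, and MYC drives growth and proliferation. The question addressed was whether these mRNAs were over- or under-represented in the TIA1 RIP RNA relative to total RNA.

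The AU-rich sequences of the set were read from GENCODE transcripts on GRCh37, the build that the array files name. AUUUA was found in the annotated 3′UTR of 9 of the 10 mRNAs, and was found in 67.7% of 19237 genes with a 3′UTR. FOS was the only mRNA of the set with the nonamer UUAUUUAUU, which 8.45% of all genes carry. The stretches below are shown because they are the sites a reader would look for in a TIA1 target, and each is 29 bases of the mRNA from 5′ to 3′ with AUUUA in capitals.
FOS: uguguuuuuaAUUUAUUUAuuaagaugga
IER3: aauuaauAUUUAuauguAUUUAuguacgu
JUN: uccagaaaggauAUUUAagaaaauacaau
JUNB: auauauuuguguAUUUAacagggagggga
ATF3: cucaacuccaggAUUUAggccuuaacaca
FOSL1: agggcagcugcuAUUUAuuuuccuaaaga
JUND: cgauucugcccuAUUUAuguuucuacucg
EGR1: cugaaaauguaaAUUUAuaaauauauuca

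The FOS stretch lies at chr14:75748761-75748789 on the plus strand and holds 2 overlapping AUUUA pentamers, and the IER3 stretch lies at chr6:30711425-30711453 on the minus strand and holds 2 separate ones. The others lie at chr1:59247008-59247036 (minus strand) for JUN, chr19:12903874-12903902 (plus) for JUNB, chr1:212793107-212793135 (plus) for ATF3, chr11:65659743-65659771 (minus) for FOSL1, chr19:18390808-18390836 (minus) for JUND and chr5:137804753-137804781 (plus) for EGR1, all within 3′UTRs. JUND and EGR1 also carried the longest runs of U in the set, shown here with the run in capitals because TIA1 is known to bind such runs.
JUND: cuuuuacUUUUUUUUUUUUUUcuuuggaa
EGR1: guuuuucUUUUUUUUUUUUUUUgaaagug

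The JUND run of 14 lies at chr19:18390856-18390884 (minus strand) and the EGR1 run of 15 at chr5:137804469-137804497 (plus strand), and 10.9% of all genes had a run of 14 or more in the 3′UTR. A match of this kind describes the annotated sequence and is not a measured binding site.

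None of the 10 mRNAs differed between TIA1 RIP and total RNA in limma's moderated test across all 13039 genes. Their log2 ratios of TIA1 RIP over total RNA ran from -0.99 for IER2 to 0.34 for JUNB among the 9 measured in both groups, and FOS, whose total RNA values were not well above background, was fitted at 0.56, with adjusted p-values from 0.786 to 0.994, and 0 of the 10 had an unadjusted p under 0.05. limma called 0% of all genes in this comparison, where 144 genes had an unadjusted p under 0.05 with the higher level in TIA1 RIP and 524 with the lower. Of the set, 5 were higher (FOS among them) and 5 lower on the means, with a median log2 ratio of 0.11 beside -0.04 over all genes. With only probes detected on all 4 arrays, which leaves out FOS, the median was -0.06 for 9 mRNAs beside -0.35 over 9238 genes. The ratios of the 9 mRNAs measured in both groups lay between the 20.9th and the 62.4th percentile of all 13039 genes. In 9 of the 10 the larger of the 2 group SDs exceeded the difference between the groups. With 2 arrays a group, a median SE of 0.94 on the log2 scale stood behind these ratios, and a difference of that size was not detectable.

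The arrays themselves were not alike, and this touches every value that follows. The 75th percentile of the processed signal fell from 1514 and 1271 in TIA1 RIP to 714 in the first total RNA replicate and 69.9 in the second. Well above background were between 45.8% and 48.4% of the spots on the other 3 arrays and 32.2% on that last one. No spot was saturated. The markers fixed for squamous epithelium (8 of 8) and for simple epithelium (4 of 4) were detected on all 4 arrays. Between 1 and 2 of 6 fibroblast markers and between 1 and 2 of 3 endothelial markers were detected on an array, while COL1A2, COL3A1 and PDGFRB of the former and PECAM1 of the latter were detected on none. All samples were of 1 line, so these counts describe detection on the arrays and not shares of cell types.

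Levels below are log2 signals from which the 75th percentile of the same array was subtracted, given in the order TIA1 RIP replicate 1, TIA1 RIP replicate 2, total RNA replicate 1 and total RNA replicate 2. They compare a gene between arrays and say nothing of one gene against another. The plot of these levels by array shows all 40 values.

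**Figure D1:**
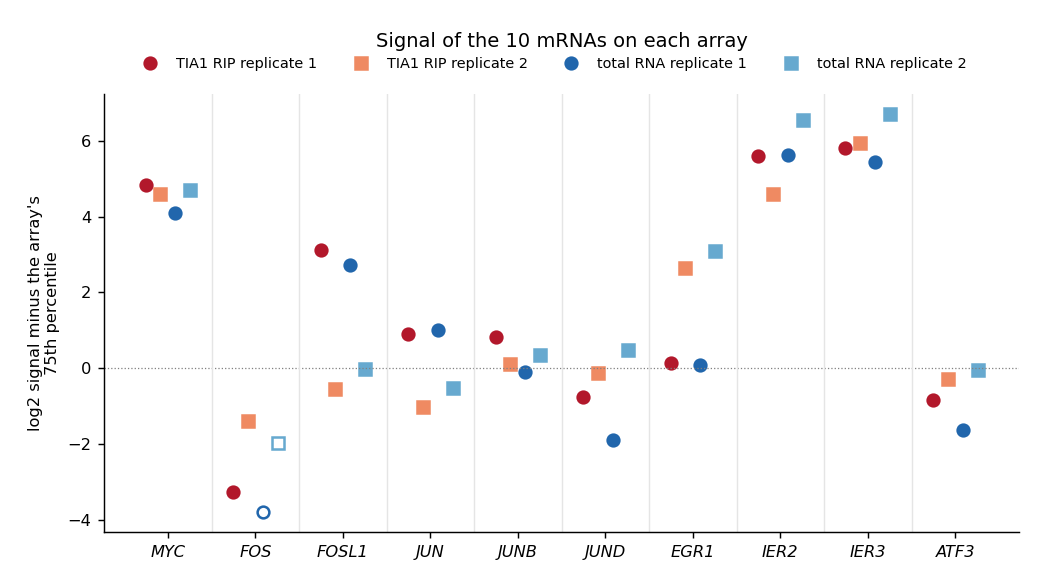
Level of each of the 10 mRNAs (log2 signal minus the 75th percentile of the array, y axis) on each of the 4 arrays; red marks are TIA1 RIP, blue marks total RNA, circles replicate 1 and squares replicate 2, and open marks were not well above background. IER2 alone has both TIA1 RIP values below both total RNA values, and FOSL1, JUN and EGR1 split by replicate number in both groups. FOS is drawn with the same split, but its total RNA values were not well above background.

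MYC, the growth-promoting transcription factor, has 3 exons at chr8:128748477-128755197 on the plus strand, and its 3′UTR of 1993 bases holds 6 AUUUA pentamers. Its level was 4.83, 4.60, 4.09 and 4.70. Both TIA1 RIP arrays stood above total RNA replicate 1, and total RNA replicate 2 lay between them, so the groups overlapped. The mean was 4.71 ± 0.17 in TIA1 RIP and 4.39 ± 0.43 in total RNA (SD, n = 2 each), a log2 ratio of 0.32 with an SE of 0.79 and a 95% confidence interval from -1.53 to 2.17 (limma, adjusted p = 0.924). The MYC probe was printed 10 times on each array, and the SD over these spots was between 0.026 and 0.036, so that spot noise was small against the difference between arrays. Before scaling, MYC gave signals of 43102 and 30748 in TIA1 RIP and signals of 12154 and 1815 in total RNA. The 3 genes whose 4 centred values lay nearest to those of MYC among 9238 genes detected on all 4 arrays were FRAT2 (Euclidean distance 0.057 on the log2 scale), JOSD1 (0.079) and TMBIM1 (0.080).

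Of the FOS family members of the set, FOSL1 varied mainly by replicate number, and for FOS the replicates were measured in TIA1 RIP only. FOS, which needs a JUN partner to bind DNA as AP-1, has 4 exons at chr14:75745531-75748933 (plus strand). Its level was -3.27, -1.39, -3.80 and -1.97, near background everywhere, and the probe was not well above background on either total RNA array. The total RNA value is therefore a bound, and it allows no fold. The lowest detected level on total RNA replicate 2 was -1.12, above both TIA1 RIP values of FOS. Measured means were -2.33 ± 1.33 in TIA1 RIP and -2.89 ± 1.30 in total RNA (SD, n = 2 each, limma, adjusted p = 0.900). The direction of FOS is not settled, since the arrays of both groups overlapped. Its fitted log2 ratio turned to -0.25 with normexp background correction, to -0.38 without TIA1 RIP replicate 2 and to -0.36 without total RNA replicate 1. RRAGD, EDN1 and FKBP1B lay nearest to FOS by the same measure (distances 0.196, 0.196 and 0.209).

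FOSL1, the FRA1 subunit of AP-1 linked to invasion in carcinomas, has 4 exons at chr11:65659520-65667859 on the minus strand. Its level was 3.12, -0.54, 2.72 and -0.03. Replicate 1 was the higher one in both groups, by 12.7-fold in TIA1 RIP and 6.71-fold in total RNA, and the group means of 1.29 ± 2.59 and 1.35 ± 1.94 (SD, n = 2 each) were almost equal. The log2 ratio was -0.06 with a 95% interval from -3.45 to 3.32 (limma, adjusted p = 0.994), the widest of the set. The size of the gap between the TIA1 RIP replicates was at the 99.6th percentile of all genes.

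The JUN family members did not move together. JUN, the founding AP-1 partner, is a single-exon gene at chr1:59246463-59249719 (minus strand), and its level was 0.90, -1.03, 1.00 and -0.51. As for FOSL1, replicate 1 was the higher one in both groups, by 3.80-fold in TIA1 RIP and 2.86-fold in total RNA, and the log2 ratio was -0.31 with a 95% interval from -2.68 to 2.06. JUNB, an AP-1 subunit that often opposes JUN, is a single-exon gene at chr19:12902300-12904129 (plus strand). Its level was 0.81, 0.11, -0.10 and 0.36, with overlap between the groups and a log2 ratio of 0.34 (95% interval -1.55 to 2.22). JUND, the most steadily expressed JUN protein, is a single-exon gene at chr19:18390504-18392432 (minus strand). Its level was -0.75, -0.13, -1.91 and 0.48, so that total RNA held both the lowest and the highest value, and the log2 ratio was 0.27 (95% interval -2.10 to 2.65).

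EGR1, an activator that couples growth factor signals to transcription, has 2 exons at chr5:137801168-137804992 on the plus strand. Its level was 0.15, 2.64, 0.10 and 3.09. Here replicate 2 was the higher one in both groups, by 5.62-fold in TIA1 RIP and 7.98-fold in total RNA, and the log2 ratio between the groups was -0.20 with a 95% interval from -3.23 to 2.83. The values of same-numbered arrays lay close to each other, 0.15 beside 0.10 and 2.64 beside 3.09.

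ATF3, a repressor and activator induced by stress, has 4 exons at chr1:212782103-212794117 on the plus strand and was measured by 4 probes. The mean over its probes was -0.85, -0.28, -1.62 and -0.05, with overlap between the groups and a log2 ratio of 0.27 (95% interval -1.82 to 2.36). The probes disagreed. A_23_P34915 read 1.60 and 2.29 in TIA1 RIP and 1.00 and 1.26 in total RNA, without overlap and with a log2 ratio of 0.81. A_33_P3214096 and A_33_P3214105 overlapped between the groups at log2 ratios of 0.14 and -0.22. A_24_P33895 was not well above background on either total RNA array and its bound allows no fold.

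IER2, a nuclear regulator of early response transcription, has 2 exons at chr19:13261225-13265725 (plus strand) and is the only mRNA of the set with no AUUUA in its 3′UTR. Its level was 5.59, 4.59, 5.62 and 6.54, the only case in the set where the groups did not overlap, and the gap between the higher TIA1 RIP value and the lower total RNA value was 0.03. The mean was 5.09 ± 0.71 in TIA1 RIP and 6.08 ± 0.65 in total RNA (SD, n = 2 each), a log2 ratio of -0.99 with a 95% interval from -2.98 to 1.01 (limma, adjusted p = 0.786). Of all genes, 21.7% were lower in TIA1 RIP without overlap and 19.4% were higher, beside 1 lower and 0 higher among these 10. IER2 overlapped between the groups with median scaling, quantile normalization, normexp and GC content removed.

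IER3, a survival factor that is not a transcription factor in spite of its place among the early response genes, has 2 exons at chr6:30710976-30712324 (minus strand). The mean over its 2 probes was 5.81, 5.95, 5.44 and 6.72. The TIA1 RIP arrays were 0.14 apart and lay between the total RNA arrays, which were 1.27 apart, and the log2 ratio was -0.20 (95% interval -2.18 to 1.78). The 2 probes gave opposite directions on the means, -0.50 for A_23_P42257 and 0.10 for A_33_P3423551.

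For 9 of the 10 mRNAs the direction differed between array pairs, and IER2 alone was lower in TIA1 RIP in all 4. FOS enters these counts and medians with total RNA values that were not well above background, so its directions were not measured. Against total RNA replicate 1, 8 of the 10 were higher in TIA1 RIP replicate 1 (all but JUN and IER2) and 7 in TIA1 RIP replicate 2 (all but FOSL1, JUN and IER2), where 53.2% and 52.5% of all genes were higher. Against total RNA replicate 2, 4 of the 10 were higher in TIA1 RIP replicate 1 (MYC, FOSL1, JUN and JUNB) and 1 in TIA1 RIP replicate 2 (FOS), where 45.0% and 44.9% of all genes were higher. That FOS level, -1.39 in TIA1 RIP replicate 2, lay below the lowest detected level on total RNA replicate 2, -1.12. The median log2 ratio of the set was 0.47 and 0.51 against total RNA replicate 1 and -0.85 and -0.48 against total RNA replicate 2, where the medians of all genes were 0.06, 0.07, -0.29 and -0.29. For JUND, EGR1, IER3 and ATF3 the sign followed the total RNA array. JUND was at 1.15 and 1.78 against total RNA replicate 1 and at -1.23 and -0.61 against replicate 2. FOSL1 was instead higher in TIA1 RIP replicate 1 against both total RNA arrays (0.40 and 3.14) and lower in replicate 2 against both (-3.26 and -0.52). No single pair has an error of its own, and these values compare arrays, not conditions.

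**Figure D2:**
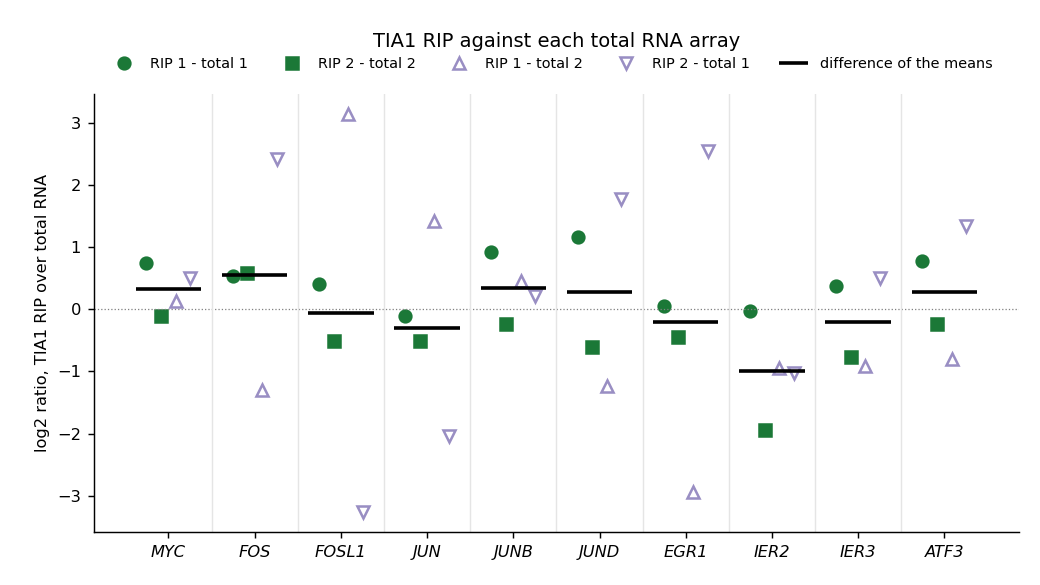
Log2 ratio of TIA1 RIP over total RNA (y axis) for each of the 10 mRNAs in the 4 array pairs; filled green marks are same-numbered pairs, open purple marks pairs of different numbers, and black bars the difference of the group means. Same-numbered pairs stay within -1.95 and 1.15, while pairs of different numbers reach -3.26 and 3.14, both for FOSL1. FOS is drawn with total RNA values that were not well above background.

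Of the 10 mRNAs, 7 differed between replicates in the same direction in both groups, beside 64.8% of all genes. For 4 of them the difference exceeded 1 on the log2 scale in both groups. FOSL1 and JUN were higher on both arrays numbered 1, and FOS and EGR1 on both arrays numbered 2, each by more than 1 on the log2 scale (for FOS with total RNA values that were not well above background). Of the other 6, JUND, IER3 and ATF3 were higher on both arrays numbered 2 by less in at least 1 group, and MYC, JUNB and IER2 went opposite ways in TIA1 RIP and total RNA. Of all genes, 12.2% differed by more than 1 on the log2 scale in the same direction in both groups, beside 4 of these 10. The median size of the difference between the TIA1 RIP replicates was 0.85 for the set and 0.48 for all genes, and between the total RNA replicates 1.54 for the set and 1.496 for all genes.

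**Figure D3:**
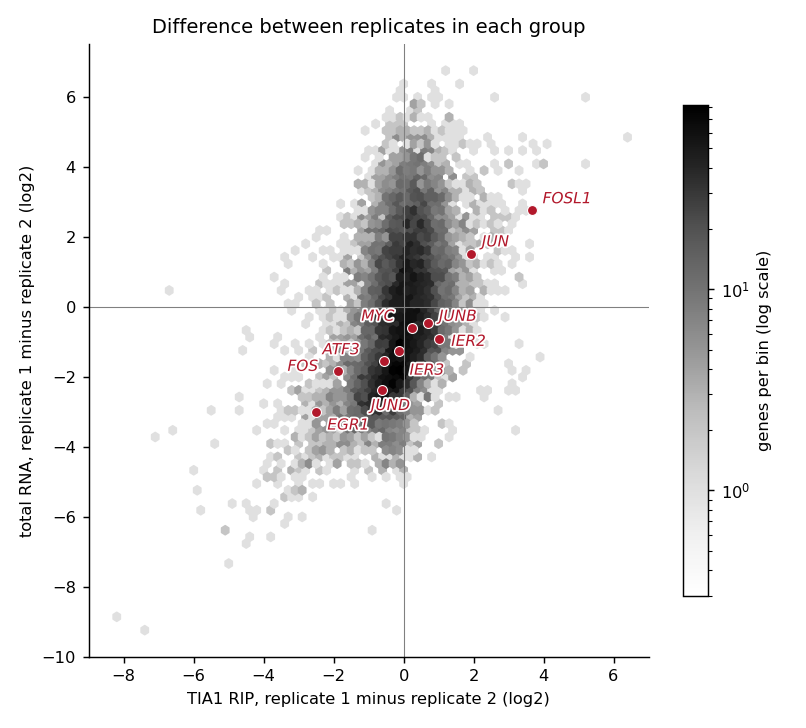
Difference between replicate 1 and replicate 2 (log2) in TIA1 RIP (x axis) and in total RNA (y axis) for 13039 genes, shaded by the number of genes in each bin on a log scale, with the 10 mRNAs in red. FOSL1 (3.66 and 2.75) and JUN (1.93 and 1.51) lie at the upper right, and FOS (-1.87 and -1.84) and, further out, EGR1 at the lower left. The total RNA values of FOS were not well above background.

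The study normalized mRNA levels to constitutive levels measured on arrays, and judged enrichment against GAPDH, which it describes as no target of TIA1. It required a difference from GAPDH of over 2.5-fold in both its arrays and its RIP-seq, and only the arrays were used here. GAPDH, a glycolytic enzyme, was among the genes that read low in TIA1 RIP. Its level was 6.49, 6.69, 7.67 and 9.63, a log2 ratio of -2.06 at the 5.52nd percentile of all genes (limma, adjusted p = 0.776). ACTB, the cytoskeletal actin used as another reference, had a log2 ratio of -1.83. Relative to GAPDH, 9 of the 10 mRNAs exceeded 2.5-fold on the group means, from 3.36-fold for JUN to 5.26-fold for JUNB among those measured in both groups. IER2 stood at 2.10-fold. FOS is counted here and in the 4 pairs below, though its total RNA values allow no fold. With only probes detected on all 4 arrays, which leaves out FOS, 8 of 9 exceeded 2.5-fold, beside 64.2% of 9238 genes. Of all genes, 72.4% exceeded the same fold, and 42.3% did so without total RNA replicate 2, where 7 of the 10 did. In the single pairs, 7 of the 10 exceeded it for TIA1 RIP replicate 1 over total RNA replicate 1 (46% of all genes), 9 for replicate 1 over replicate 2 (76.7%), 6 for replicate 2 over replicate 1 (40%) and 9 for replicate 2 over replicate 2 (77.7%). MYC, FOS (with total RNA values not well above background), JUND, IER3 and ATF3 exceeded it in all 4 pairs, as 26.2% of all genes did. MYC ranged over these pairs from 2.79-fold to 9.70-fold and FOSL1 from 0.20-fold to 78.2-fold. With all genes' median as the reference instead, 0 of the 10 exceeded 2.5-fold.

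Base composition moved with the choice of total RNA array. The transcript GC content of 9 of the 10 mRNAs was above the median of 49.1% over all genes, from 50.4% for ATF3 to 69.9% for JUND, and MYC stood at 48.8%. Among all genes kept, those with GC above the median had a median log2 ratio of -1.33 and -1.22 against total RNA replicate 2 (TIA1 RIP replicates 1 and 2), and those at or below it 1.34 and 1.30. Against total RNA replicate 1 the same medians were 0.01 and 0.05 above the GC median and 0.14 and 0.06 at or below it. Of the 13039 genes kept, 9238 were detected on all 4 arrays, and values not well above background enter these medians. With the trend on GC content removed on each array, the log2 ratio of JUND was 1.58 (limma, adjusted p = 0.633) and that of JUNB 1.37 (adjusted p = 0.647), JUNB, JUND and IER3 were higher in TIA1 RIP without overlap beside 20.9% of all genes, and IER2 was at -0.04. The part of GC content in these ratios was otherwise not tested.

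With no AUUUA pentamer (IER2 alone) the log2 ratio was -0.99, and the median of the set was 0.11 with 1 or 2 (4 mRNAs). With 3 or more (5 mRNAs) the median was 0.27, which includes FOS, whose total RNA values were not well above background. The others with 3 or more had ratios of both signs, so no order by AUUUA number can be read from the set. IER3 and MYC had 6 each and FOS had 5, where 29.1% of all genes had 5 or more, and their log2 ratios were -0.20, 0.32 and 0.56 (the last from total RNA values not well above background). JUN and ATF3 had 3 each, at -0.31 and 0.27, JUNB had 2, and FOSL1, JUND and EGR1 had 1 each. Among all genes kept the median log2 ratio was -0.66 with no AUUUA (3540 genes), -0.06 with 1 or 2 (3081 genes) and 0.58 with 3 or more (5045 genes). This order was carried by total RNA replicate 2, against which the genes with 3 or more stood at 1.03 and 1.01 in the TIA1 RIP replicates and those with none at -1.48 and -1.29. Against total RNA replicate 1 the same groups stood at 0.16 and 0.09, and at -0.12 and -0.04. Values not well above background enter these medians of all genes too. The 5 mRNAs of the set with 3 or more had a median of -0.80 and -0.23 against total RNA replicate 2, and of 0.54 and 0.51 against replicate 1. FOS is 1 of the 5, with total RNA values not well above background, and the 0.54 is its own ratio.

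Of 4 lists of related genes, none held a gene that limma called. The counts and medians of these lists include genes not detected on every array. A gene could be kept through TIA1 RIP alone or total RNA alone, and its direction was then not fully measured. Among 15 AP-1 and ATF/CREB relatives kept of 19 listed, 9 were higher in TIA1 RIP on the means with a median log2 ratio of 0.55, and the groups did not overlap for 6 higher and 3 lower ones, beside 19.4% and 21.7% of all genes. FOSL2, another FOS-related AP-1 subunit, had levels of -1.68, -2.48, -0.64 and 1.89 and a log2 ratio of -2.71 (limma, unadjusted p = 0.035, adjusted p = 0.776), the only gene of these lists with an unadjusted p under 0.05. CREB3 had a log2 ratio of -1.45, ATF6, a sensor of endoplasmic reticulum stress, of 1.43, and ATF7 of 1.82. Of the MYC/MAX network, the dimer partners and antagonists of MYC, 12 of 13 genes were kept with a median of -0.40, where 4 were higher on the means and 2 were lower without overlap. ZBTB17, the MIZ1 protein that MYC represses with, had a log2 ratio of -1.28, the MAX-binding antagonists MXD4 and MXI1 had -0.99 and 0.55, and MLX had 0.55.

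Of 42 other immediate early genes 34 were kept, 25 of them higher on the means with a median of 0.44, and the groups did not overlap for 6 higher and 3 lower ones, again beside 19.4% and 21.7% of all genes. The kinase gene PLK3 had a log2 ratio of -1.18, IER5 of -1.03, and the antiproliferative genes BTG1 and BTG2 of 1.30 and 1.49 (limma, adjusted p = 0.776 or more for each). In this list 12 genes differed by more than 1 on the log2 scale between replicates in the same direction in both groups, beside 12.2% of all genes. All 7 genes of the serum response factor list, which holds the factor that switches on many immediate early genes and its cofactors, were kept with a median of 0.21, and 4 were higher on the means, 2 of them without overlap, while 1 was lower without overlap. The 3 members detected on all 4 arrays were ELK4 at -0.67, MRTFA at -0.51 and FHL2 at -0.14, and the 4 higher ones, ELK1, ELK3, MRTFB and SRF, named after their values were seen, were not detected on every array.

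**Figure D4:**
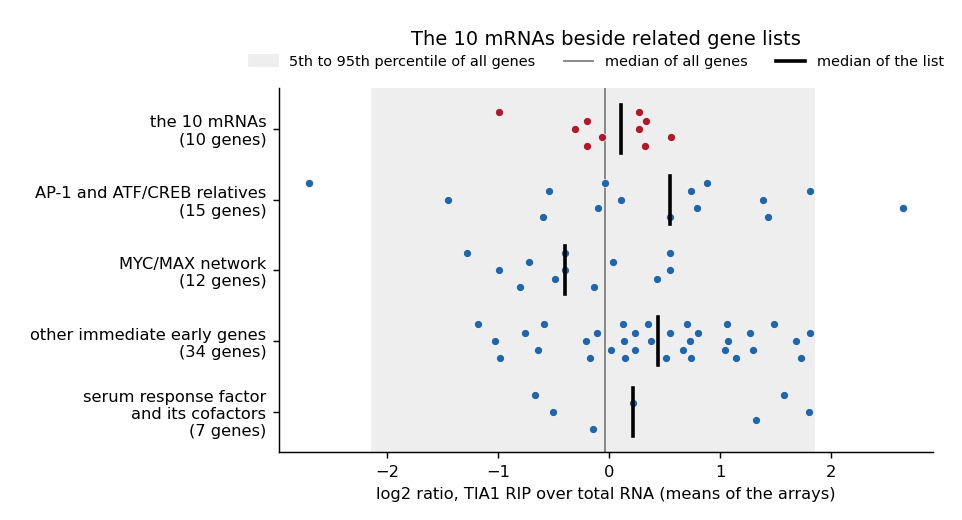
Log2 ratio of TIA1 RIP over total RNA on the group means (x axis) for the 10 mRNAs (red) and for the genes kept of 4 related lists (blue), one point a gene; black bars are list medians, the grey line the median of all genes and the grey band their 5th to 95th percentile, from -2.13 to 1.85. All 10 mRNAs lie inside the band. FOS and other genes not detected on every array are drawn as well.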

How the data were processed

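KYSE180 RNA from anti-TIA1 immunoprecipitates and total RNA were each measured on 2 arrays. The authors scanned the arrays and deposited, for every spot, the linear fluorescence intensity given by Agilent Feature Extraction 10.7.1.1 (10.7 in the submitters' processing notes). The deposited files also hold other columns, flags of 0 or 1 that mark uneven, deviant, saturated and detected spots. The values were not normalized between arrays, and the authors' later steps in GeneSpring were not used here. All 4 arrays shared 1 slide and scan.

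The processed signal was put on the log2 scale without the spots flagged uneven or deviant, less the array's 75th percentile, and then averaged over the spots of each probe. Detection on an array required a share of 0.5 or more of a probe's spots to be well above background, and probes detected on both arrays of a group were used (20107 of 50599 probes). RefSeq and GENCODE accessions gave a symbol for 34510 probes, and the probes of a symbol were averaged, which left 13039 genes after 3 with a missing value were dropped. GENCODE v44 lifted to GRCh37 gave positions and 3′UTRs; AUUUA and UUAUUUAUU were counted on the mRNA strand with overlaps allowed, and UUAUUUAUU contains AUUUA. limma 3.58.1 in R 4.3.3 compared 2 against 2 arrays with Benjamini-Hochberg adjustment over all genes and a threshold of 0.05, and was tested on simulated data. GC content, known for 89.8% of genes, was removed by lowess (statsmodels 0.14.6, span 0.3). Normexp used an offset of 50 on the median spot signal.

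The set, the gene lists and the tests were chosen with earlier results of these data known. Named were all 10 members with their probes, GAPDH and ACTB, the 2 highest and 2 lowest ratios of each list among genes detected on all 4 arrays, and the 3 genes nearest to MYC and to FOS. The number of arrays limits the precision. The RNA from control immunoglobulin and the RIP-seq data were not analysed here. The leukocyte markers are not reported here.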

Additional observations from a re-analysis of the deposited data

How the results depend on the processing

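No alternative with all 4 arrays called any of the 10 mRNAs, and MYC and IER2 changed direction in none of 13 alternatives. For these genes of 1 probe each, detected on all 4 arrays, several alternatives could not change the ratio. These were the replicate block, probes detected on all 4 arrays, no detection filter and the brightest probe. GC removal with the block also repeats the ratio of GC removal without it. Among the rest, MYC ran from 0.02 without total RNA replicate 1 to 0.87 with quantile normalization. IER2 ran from -1.49 without TIA1 RIP replicate 1 to -0.04 with GC content removed. The count of genes called by limma was 0 and stayed at 0 in all alternatives but 3. With the replicate number as a block it was 356 (57 higher and 299 lower in TIA1 RIP, 0 of them in the set), and with 1 array left out it ran from 0 to 3901, the highest without total RNA replicate 1, where the lone total RNA array is assumed to vary like the others. The arrays share only a number, and the deviations of same-numbered arrays from their group means correlated at r = 0.453 across genes; the block changed no call in the set. The count of mRNAs without overlap between the groups, 1 as reported, was 2 with median scaling (FOS and ATF3), 3 with quantile normalization (MYC, FOS and IER3), 3 with normexp (MYC, JUNB and IER3) and 3 with GC content removed (JUNB, JUND and IER3), all higher in TIA1 RIP and without IER2, beside 14.7%, 25.5%, 18.2% and 20.9% of all genes. FOS enters the counts with median scaling, with quantile normalization, without TIA1 RIP replicate 1 and without total RNA replicate 2. Its total RNA values were not well above background there, so its lack of overlap was not measured. The count was 2 with the brightest probe of each gene (IER2 lower, ATF3 higher), beside 22.1% lower and 19.4% higher of all genes. Without TIA1 RIP replicate 1 it was 4 (1 higher and 3 lower, beside 26.5% and 29.1% of all genes). Without TIA1 RIP replicate 2 it was also 4 (3 higher and 1 lower, beside 29.5% and 31.2%). Without total RNA replicate 1 it was 5, all lower, beside 49.7% of all genes. Without total RNA replicate 2 it was 9 (7 higher and 2 lower, beside 41.2% and 35.5% of all genes). The count past 2.5-fold was 0 with the median of all genes as the reference, beside 12.7% of all genes, and from 7 to 10 otherwise, beside 42.3% (without total RNA replicate 2) to 80.7% (2-fold) of all genes. The median of the set ran from -0.44 without total RNA replicate 1 to 0.59 without total RNA replicate 2. With only probes detected on all 4 arrays, which leaves out FOS, the median was -0.06 for the set and -0.35 for all genes. Median scaling and quantile normalization moved the median of all genes from -0.04 to 0.27 and 0.26.

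Ratios near 0 changed sign. FOSL1 was at 0.25 with median scaling, 0.056 with quantile normalization, 0.055 with normexp and 0.64 with GC content removed, with or without the replicate block. EGR1 was at 0.11, 0.072, 0.17 and 0.27 in the same order, and IER3 at 0.11, 0.78, 0.28 and 0.47. JUN was at 0.00066 with median scaling and 0.22 with GC content removed, and FOS at -0.25 with normexp. With 1 array left out, the log2 ratio ran from -0.38 to 1.495 for FOS, from -1.89 to 1.77 for FOSL1, from -1.27 to 0.65 for JUN, from -0.015 to 0.69 for JUNB, from -0.92 to 1.46 for JUND, from -1.70 to 1.30 for EGR1, from -0.84 to 0.44 for IER3 and from -0.51 to 1.05 for ATF3. FOS has no value when only probes detected on all 4 arrays are used. A slide or scan block was not run because all arrays share 1 slide and scan, and normexp used the median spot signal in place of the mean. The cause of these changes was not tested.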
